A study of Mus musculus with 35 samples.

Results

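The 10 genes described here encode proteins of the junctions, receptors and surface of endothelial cells, the cells that line blood vessels. They were chosen by name (Cdh5, Pecam1, Esam, Cldn5, Kdr, Flt1, Tek, Tie1, Egfl7 and Car4), as every probe set annotated with exactly that symbol, and all 10 were found among 17097 genes, on 16 probe sets. Where a gene had more than 1 probe set, the one with the highest mean over all arrays stood for it. RNA of whole lung from adult male CD-1 mice, an outbred stock, was hybridised to 1 array per mouse. The mice breathed styrene, a volatile aromatic monomer used in plastics, at 1, 5, 10, 20, 40 or 120 ppm, or air alone (0 ppm), with 5 mice per group and 35 in all. The protocol and the sample titles give 1 exposure of 6 h on 1 day, whereas the series title and another sample label give 5 days, so the length of exposure is not settled here. The series tests how lung gene expression varied with the styrene concentration.

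Whole lung holds epithelial, mesenchymal, blood and endothelial cells together. In the bulk RNA of a whole lung, fewer endothelial cells and less RNA per cell cannot be told apart, and this holds for every level below. Defining lung transcripts stood near the top of the array scale: Sftpc, the surfactant protein of alveolar type II cells, averaged 13.77 ± 0.0128 at 120 ppm and 13.77 ± 0.0471 in air (log2 units, SD, n = 5 each). The mean of the 7 measured alveolar epithelial markers was 12.21 at 120 ppm and 11.72 in air, so Sftpc does not stand for them all. Vwf, the clotting factor stored in endothelial cells, averaged 10.61 ± 0.212 at 120 ppm and 11.61 ± 0.141 in air. Endothelial markers did not all move that way. Gpihbp1, a capillary marker, averaged 10.68 ± 0.161 at 120 ppm and 11.21 ± 0.0848 in air, but Ednrb, another, averaged 8.901 ± 0.127 and 7.657 ± 0.366.

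As background, endothelial cells are held together by adherens junctions, built on VE-cadherin, and by tight junctions, in which claudin-5 closes the space between neighbouring cells. Vascular endothelial growth factor acts through the receptor tyrosine kinase VEGFR2, while VEGFR1 binds the same ligand and limits how much of it reaches VEGFR2. The angiopoietins act through the receptor TIE2, whose signal keeps vessels quiescent and tight, and TIE1 is an orphan relative of TIE2 that forms complexes with it. In the lung, these proteins line the capillaries through which gas is exchanged.

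The receptor genes gave the widest contrast between related members, so their promoter sequences are shown first. RefSeq promoters (GRCm38.p6) were matched by symbol for 7 members: Cldn5, Kdr, Flt1, Tek, Tie1, Egfl7 and Car4, with 9 promoters among them. The 250 bases before the start of transcription are printed 5′ to 3′ on the strand of the gene, and capitals mark AGGAAG or CCGGAA, read on both strands, which are core motifs bound by the ETS family of transcription factors. Tek lies at chr4:94739039-94739288 on the plus strand, Tie1 at chr4:118489850-118490099 on the minus strand, Kdr at chr5:75978456-75978705 on the minus strand and Flt1 at chr5:147726012-147726261 on the minus strand.
Tek: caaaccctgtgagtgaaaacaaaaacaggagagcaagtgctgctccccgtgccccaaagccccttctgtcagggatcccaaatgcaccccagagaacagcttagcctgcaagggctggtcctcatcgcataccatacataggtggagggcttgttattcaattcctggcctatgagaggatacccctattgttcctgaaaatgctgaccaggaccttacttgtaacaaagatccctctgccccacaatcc
Tie1: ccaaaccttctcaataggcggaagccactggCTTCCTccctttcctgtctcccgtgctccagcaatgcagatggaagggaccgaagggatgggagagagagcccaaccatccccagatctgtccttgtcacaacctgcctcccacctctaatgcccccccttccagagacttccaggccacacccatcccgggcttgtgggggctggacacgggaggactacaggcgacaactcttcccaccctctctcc
Kdr: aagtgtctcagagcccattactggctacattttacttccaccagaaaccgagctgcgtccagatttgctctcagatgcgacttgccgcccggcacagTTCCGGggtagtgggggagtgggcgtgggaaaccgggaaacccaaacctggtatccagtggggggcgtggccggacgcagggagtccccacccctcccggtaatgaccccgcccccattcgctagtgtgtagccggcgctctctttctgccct
Flt1: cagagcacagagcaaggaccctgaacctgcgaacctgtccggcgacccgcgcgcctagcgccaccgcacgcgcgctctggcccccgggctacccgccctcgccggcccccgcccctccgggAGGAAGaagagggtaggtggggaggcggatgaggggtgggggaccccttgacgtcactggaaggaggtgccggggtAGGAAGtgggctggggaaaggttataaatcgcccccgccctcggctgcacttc
AGGAAG was found in 4 of the 9 member promoters, and in 29.5% of 32851 promoters of the same length over all genes. CCGGAA was found in 2 of the 9, and in 12% of all. The Tie1 window held 1 AGGAAG, the Flt1 window held 2, the Kdr window held 1 CCGGAA, and neither motif was in the Tek window. GC content was 51.2% in the window of Tek, 60.4% in that of Tie1, 61.6% in that of Kdr and 70.4% in that of Flt1. A match describes these letters and is not a measured binding site.

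The levels fell into 2 sets of concentrations. At 5 to 120 ppm, Tek, Pecam1, Flt1 and Kdr were higher than in air, while Tie1, Egfl7, Cldn5 and Esam were lower, in each of the 5 comparisons. Cdh5 was higher at 10 and 40 ppm alone, and Car4 was lower at 5 and 120 ppm alone. At 1 ppm, 0 of the 10 members passed the test against air. Calls are from limma at an adjusted p under 0.05 (Benjamini-Hochberg over all 17097 genes).

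These counts stood against a background in which most genes passed the test. At 1 ppm against air, 2.46% of all genes were called (0.965% higher and 1.49% lower), and 0 members had an unadjusted p under 0.05 in limma. At 5 ppm against air, 9 of the 10 members were called (4 higher and 5 lower), beside 77% of all genes (29.6% higher and 47.4% lower). At 10 ppm, 9 were called (5 higher and 4 lower), beside 66.4% (29% higher and 37.4% lower). At 20 ppm, 8 were called (4 in each direction), beside 63.6% (29.4% higher and 34.2% lower). At 40 ppm, 9 were called (5 higher and 4 lower), beside 64.8% (28.6% higher and 36.2% lower). At 120 ppm, 9 were called (4 higher and 5 lower), beside 68.9% (29.8% higher and 39.1% lower). A share of 8 or 9 in 10 is near that background, so the counts alone set the members little apart from other genes. The 6 comparisons share the 5 air mice. The median change of the members was -0.20 at 5 ppm, 0.16 at 10 ppm, 0.05 at 20 ppm, 0.28 at 40 ppm and -0.14 at 120 ppm on the log2 scale, where the medians of all genes were -0.23, -0.14, -0.11, -0.13 and -0.15.

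The arrays fell into the same 2 sets by a property of the whole array. The interquartile range of the log2 values was 3.284 to 3.536 on the 25 arrays of 5 to 120 ppm, against 2.664 to 3.164 on the 10 arrays of air and 1 ppm. The labels name no batch, and the set of arrays and the concentration cannot be told apart. Array medians were 4.353 to 4.557, the highest correlation of 2 arrays was 0.994, and no 2 arrays held the same values. The number of arrays limits the precision. For 6 of the 10 members (Pecam1, Esam, Cldn5, Tek, Tie1 and Egfl7), the 25 arrays did not overlap the 10, as was true of 29.5% of all genes. With each array's interquartile range as a covariate, 5 members were called at 120 ppm against air, beside 29.5% of all genes in the same fit: Tek was higher (0.69, adjusted p = 0.00619 by limma), and Esam, Cldn5, Tie1 and Egfl7 were lower (-1.18 to -0.62). Under that covariate, the 120 ppm differences from air of Pecam1 (0.52, adjusted p = 0.192), Flt1 (0.071, adjusted p = 0.859) and Kdr (-0.023, adjusted p = 0.957) were not called. At 10 and 40 ppm Pecam1 was still called in that fit (0.81 and 0.82, adjusted p of 0.026 and 0.0256). That fit sets groups side by side at a range that the 2 sets did not share.

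**Figure D1:**
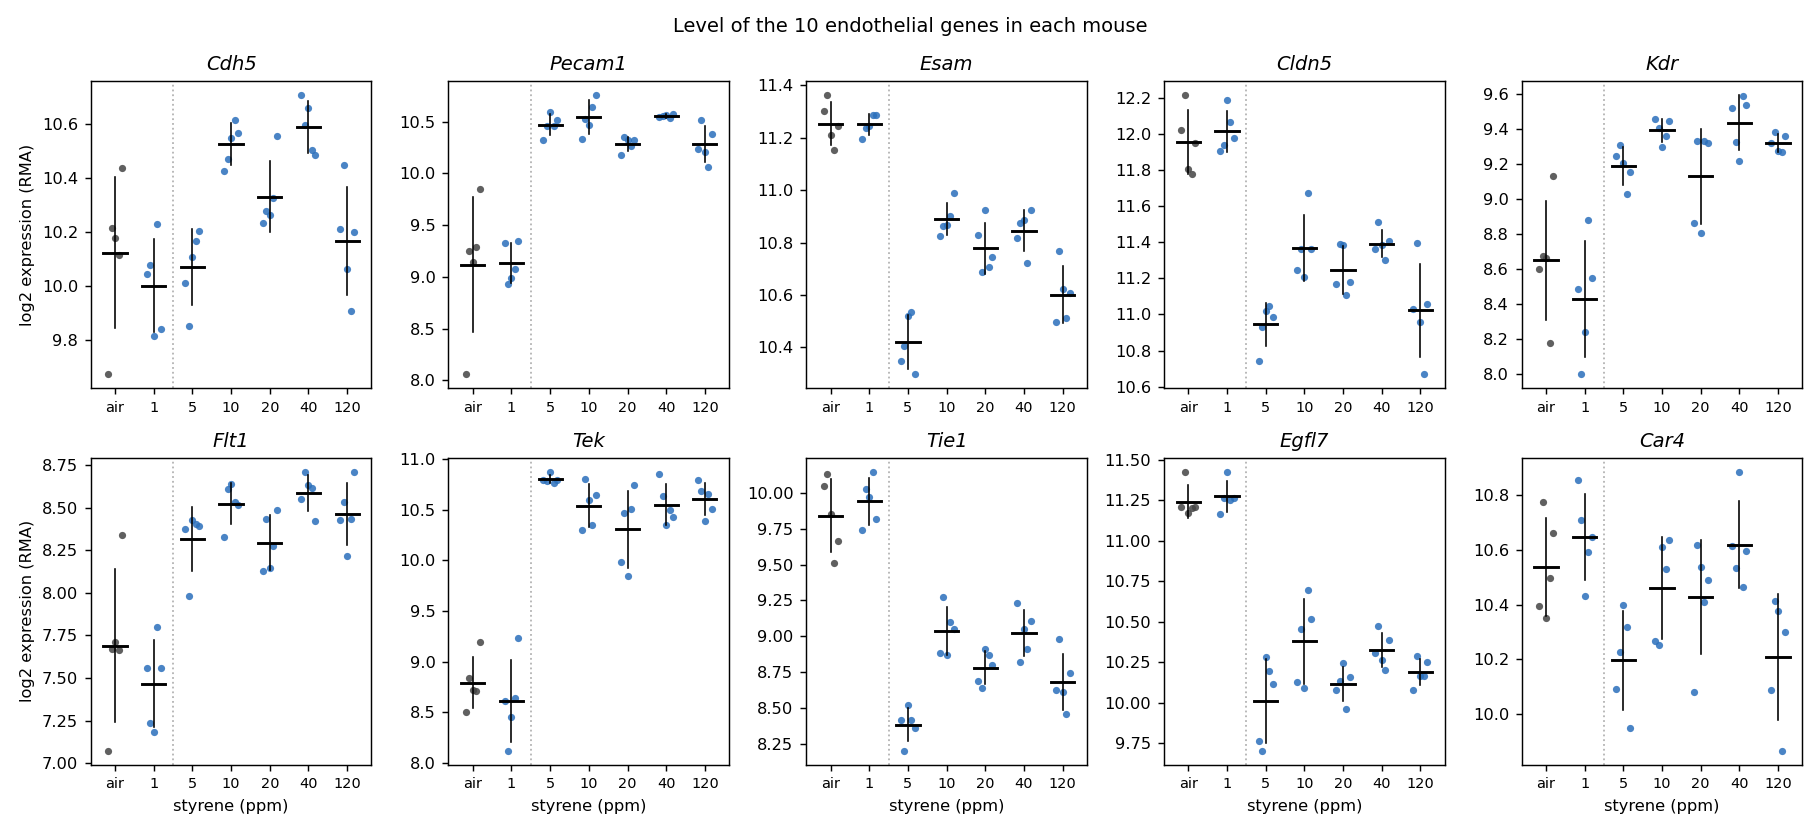
Log2 level of the main probe set of each of the 10 members (vertical axes) in every mouse by styrene concentration in ppm (horizontal axes), with bars for the group mean. Air and 1 ppm lie together, and Tek and Pecam1 lie above them at 5 to 120 ppm while Tie1, Egfl7, Cldn5 and Esam lie below them.

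Among the junction genes, Pecam1 rose and Cldn5 and Esam fell. Pecam1 encodes PECAM-1, the adhesion molecule by which endothelial cells, platelets and leukocytes bind each other. In the 120 ppm mice it stood at 10.24, 10.52, 10.21, 10.06 and 10.38, against 8.06, 9.25, 9.14, 9.29 and 9.85 in the air mice. All 120 ppm mice lay above all air mice, and air mouse 1 lay lowest of the 35. The difference was 1.16 ± 0.169 (SE), with an adjusted p of 2.76e-07 by limma. The Pecam1 difference from air was 0.02 for the 1 ppm mice and then 1.35 for those given 5 ppm, with 1.43, 1.17 and 1.44 for the 10, 20 and 40 ppm mice. It was no larger at 120 ppm than at 5 ppm. Without air mouse 1 it was 0.90 at 120 ppm and was still called.

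Cldn5, the main tight junction claudin of endothelium, stood at 11.03, 11.40, 10.96, 10.67 and 11.06 in the 120 ppm mice, against 12.02, 12.22, 11.81, 11.78 and 11.95 in the air mice. The groups did not overlap. The difference of -0.93 ± 0.105 had an adjusted p of 2.07e-09 by limma. Cldn5 was lower by most at 5 ppm (-1.01) and by least at 40 ppm (-0.56).

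Esam, an immunoglobulin-family adhesion molecule of endothelial tight junctions and of platelets, stood at 10.50, 10.77, 10.62, 10.51 and 10.61 in the 120 ppm mice, against 11.30, 11.36, 11.21, 11.15 and 11.24 in the air mice. Its 5 mice in each group lay close together, and the groups did not overlap. The difference was -0.65 ± 0.0672, with an adjusted p of 3.05e-10 by limma. At 5 ppm the Esam difference was -0.83, and at 10 ppm it was -0.37. Of the 9 measured platelet markers, 8 were lower at 120 ppm, beside 39.1% of all genes lower. The mean level of the list was 5.525 to 6.399 over the 120 ppm mice and 6.844 to 7.455 over the air mice. The other marker, Ppbp, averaged 7.599 ± 0.533 in air, 8.88 ± 0.378 at 5 ppm and 8.177 ± 0.651 at 120 ppm (SD, n = 5 each, log2). It was not called at 120 ppm. Ptprc, the pan-leukocyte phosphatase CD45, was higher at 120 ppm by 0.76 (adjusted p = 0.00963 by limma). It averaged 8.51 ± 0.397 in air and 10.29 ± 0.364 at 5 ppm (SD, n = 5 each, log2). Its averages were 9.11 ± 0.35 at 10 ppm, 8.59 ± 0.682 at 20 ppm and 8.48 ± 0.335 at 40 ppm. The mean of the 9 leukocyte markers was 6.797 to 7.622 over the 120 ppm mice and 6.969 to 7.444 over the air mice. The part of platelets and leukocytes in the Pecam1 and Esam differences was not tested.

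Cdh5, which encodes VE-cadherin, did not follow the split. It stood at 10.21, 10.45, 10.06, 9.91 and 10.20 in the 120 ppm mice, against 9.67, 10.21, 10.18, 10.12 and 10.44 in the air mice. These ranges overlapped, and the difference was 0.04 ± 0.109 (95% interval -0.18 to 0.26, adjusted p = 0.733 by limma). At 40 ppm its levels were 10.71, 10.60, 10.66, 10.50 and 10.48, all above the highest air mouse, and the difference of 0.47 had an adjusted p of 0.000373. At 10 ppm Cdh5 was higher by 0.40 (adjusted p = 0.00173 by limma), and at 20 ppm the difference of 0.21 was not called (adjusted p = 0.0955), although it was 0.29 with an adjusted p of 0.0229 when air mouse 5 was left out. A second, dimmer Cdh5 probe set gave other calls: -0.35 at 5 ppm (adjusted p = 0.0275 over all probe sets, limma), where the main one gave -0.05, and 0.29 at both 10 and 40 ppm (adjusted p of 0.0712 and 0.0793). With the interquartile range as a covariate, both calls of the main Cdh5 probe set were lost, with 0.16 at 10 ppm (adjusted p = 0.587) and 0.23 at 40 ppm (adjusted p = 0.426).

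The VEGF receptors rose together. Kdr, the gene of VEGFR2, stood at 9.32, 9.38, 9.27, 9.27 and 9.36 in the 120 ppm mice, against 8.60, 8.67, 8.66, 8.18 and 9.13 in the air mice. All 120 ppm mice lay above all air mice, of which mouse 5 was the closest. The difference was 0.67 ± 0.137, with an adjusted p of 6.49e-05 by limma, and over 5 to 40 ppm it was 0.48 to 0.79.

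Flt1, the gene of VEGFR1, stood at 8.43, 8.53, 8.21, 8.43 and 8.71 in the 120 ppm mice, against 7.07, 7.67, 7.71, 7.66 and 8.34 in the air mice. Air mouse 5 lay above 1 of the 120 ppm mice, and the other 4 air mice lay below them all. The Flt1 difference was 0.77 ± 0.145 (adjusted p = 1.97e-05 by limma). All 3 Flt1 probe sets rose, by 0.77, 1.16 and 0.70 at 120 ppm and by 0.63, 1.29 and 0.75 at 5 ppm. With the array's interquartile range as a covariate, neither receptor was called at any of the 5 concentrations from 5 to 120 ppm, with differences from air of -0.27 to 0.13 for Kdr and -0.19 to 0.23 for Flt1.

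The angiopoietin receptor genes moved apart. Tek, the gene of TIE2, stood at 10.80, 10.68, 10.39, 10.65 and 10.50 in the 120 ppm mice, against 8.50, 8.84, 8.72, 8.70 and 9.19 in the air mice. The lowest 120 ppm mouse lay 1 log2 unit or more above every air mouse. The difference of 1.81 ± 0.161 is 3.51-fold (adjusted p = 1.43e-11 by limma), the largest rise of the 10 members. At 5 ppm the Tek level was 10.79, 10.79, 10.87, 10.76 and 10.79, against 8.61, 8.12, 8.46, 8.64 and 9.24 at 1 ppm. Those 5 ppm mice lay close together, while the 1 ppm mice were spread over more than 1 log2 unit.

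Tie1 stood at 8.63, 8.98, 8.61, 8.46 and 8.75 in the 120 ppm mice, against 10.05, 10.13, 9.85, 9.51 and 9.67 in the air mice. The groups did not overlap. The Tie1 difference was -1.16 ± 0.111, or 0.448-fold, with an adjusted p of 7.58e-11 by limma. Between 5 and 1 ppm, Tie1 differed by -1.56 and Tek by 2.19 (adjusted p of 3.97e-14 and 7.62e-14, limma). In this comparison the Tek call was lost with the interquartile range as a covariate (0.33, adjusted p = 0.497).

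Egfl7, a protein that endothelial cells secrete into the vessel matrix, stood at 10.08, 10.29, 10.16, 10.16 and 10.25 in the 120 ppm mice, against 11.21, 11.42, 11.17, 11.20 and 11.21 in the air mice. All 120 ppm mice lay below all air mice. The difference was -1.05 ± 0.105 (adjusted p = 1.77e-10 by limma), and all 3 Egfl7 probe sets fell, by 1.05, 1.01 and 1.00.

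Car4, the carbonic anhydrase anchored on the luminal face of lung capillaries and a marker of the large capillary cells called aerocytes, moved least steadily. It stood at 10.09, 10.41, 10.38, 9.87 and 10.30 in the 120 ppm mice, against 10.40, 10.77, 10.35, 10.50 and 10.66 in the air mice. The ranges overlapped. The difference was -0.33 ± 0.119 (adjusted p = 0.0155 by limma), and the call was lost without air mouse 2 (adjusted p = 0.056) or without 120 ppm mouse 4 (adjusted p = 0.0747). It was also lost with array weights (-0.28, adjusted p = 0.0559) and with the interquartile range as a covariate (-0.42, adjusted p = 0.172), as was the call at 5 ppm with that covariate (adjusted p = 0.179). The other Car4 probe set gave -0.21 at 120 ppm (adjusted p = 0.146) and -0.38 at 5 ppm (adjusted p = 0.0065).

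**Figure D2:**
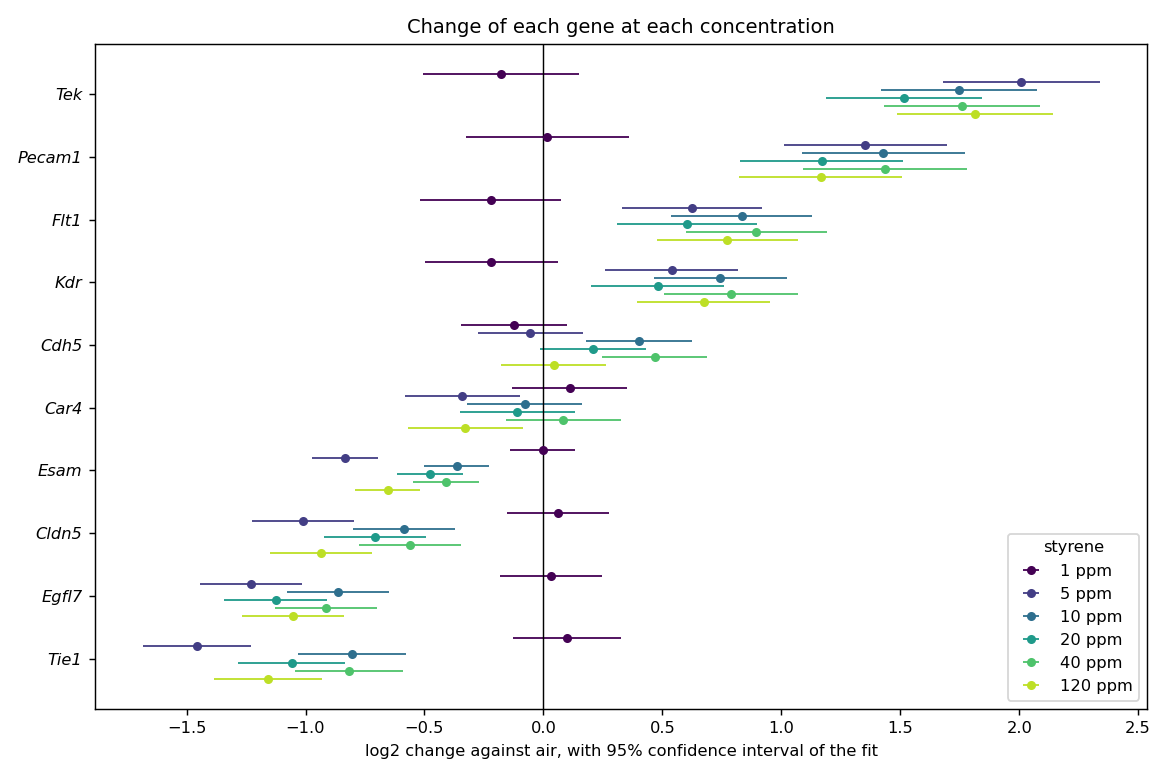
Log2 difference from air of the 10 members at each styrene concentration, with 95% intervals (5 mice per group). At 1 ppm all intervals include 0, and at 5 to 120 ppm Tek and Pecam1 lie above 1 while Tie1, Egfl7, Cldn5 and Esam lie below 0.

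Between neighbouring concentrations, the step from 1 to 5 ppm moved 9 members (4 higher and 5 lower), beside 79.6% of all genes (31.1% higher and 48.5% lower). From 5 to 10 ppm, 5 members rose and 0 fell, beside 27.2% of all genes called with 17.4% higher and 9.86% lower. The 5 were Tie1 (0.65), Esam (0.47), Cdh5 (0.46), Cldn5 (0.43) and Egfl7 (0.37), with adjusted p of 0.000119 to 0.00964 by limma. Of these, 4 are the members that were lower than air, and they were nearer to air at 10 ppm than at 5 ppm. For Egfl7 the call was lost without 10 ppm mouse 4 (adjusted p = 0.0528) and when the 5 and 10 ppm arrays alone were fitted (adjusted p = 0.0768). Pecam1 (0.08), Kdr (0.20), Flt1 (0.21), Tek (-0.26) and Car4 (0.26) did not pass, although Car4 did with the mean of all its probe sets (0.31, adjusted p = 0.0457) and Kdr did with the interquartile range as a covariate (0.35, adjusted p = 0.0387). In limma 0 members were called between 10 and 20 ppm, and 0% of all genes were called, while 2 members and 1589 of the 17097 genes had an unadjusted p under 0.05. Between 20 and 40 ppm 0 members and 0% of all genes were called in limma, while 3 members and 983 genes had an unadjusted p under 0.05. Between 40 and 120 ppm 0 members and 0.0175% of all genes were called in limma, while 5 members and 1625 genes had an unadjusted p under 0.05. There 9 of the 10 differences were below 0, Cdh5 being the lowest at -0.42 (adjusted p = 0.186). With array weights that Cdh5 difference was -0.39 and was called (adjusted p = 0.0278).

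A slope on log2(ppm + 1) over all 7 groups was called for 9 members (5 higher and 4 lower), beside 72.6% of all genes (30.9% higher and 41.8% lower). Tek had the steepest slope, 0.29 ± 0.0442 per unit (adjusted p = 1.14e-06 by limma), and Tie1 the steepest fall, -0.17 ± 0.0317. The Cdh5 slope of 0.05 (adjusted p = 0.0251) was lost without air mouse 1 (adjusted p = 0.0704), with the mean of both probe sets (0.021, adjusted p = 0.317), with centring on array medians (adjusted p = 0.0866), with array weights (adjusted p = 0.186) and with the covariate (adjusted p = 0.727). The slope of Car4 passed without 40 ppm mouse 3 (adjusted p = 0.0489). Over the 25 arrays of 5 to 120 ppm, 0 members had a slope that passed in limma, at the adjusted or the unadjusted threshold of 0.05, beside 0.00585% of all genes called and 3712 genes at an unadjusted p under 0.05. The slopes there were -0.04 to 0.04. With concentration on a linear scale, or with the interquartile range as a covariate, 0 members had a called slope over the 7 groups. With the covariate 6.94% of all genes had a called slope, and for the linear scale that share was not taken.

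Ordered by mean level, the groups showed 1 step that passed the test in most members. For Tek the order from lowest was 1 ppm (8.61), air (8.79), 20 ppm (10.31), 10 ppm (10.54), 40 ppm (10.55), 120 ppm (10.61) and 5 ppm (10.80), and the step between air and 20 ppm alone passed (adjusted p = 9.78e-10 by limma). For Tie1 the order from lowest was 5 ppm (8.38), 120 ppm (8.68), 20 ppm (8.78), 40 ppm (9.02), 10 ppm (9.04), air (9.84) and 1 ppm (9.94), and the step between 10 ppm and air alone passed (adjusted p = 1.34e-07). Pecam1, Esam, Cldn5, Kdr, Flt1 and Egfl7 likewise had a single passing step, the one that parted air and 1 ppm from the rest. In the orders of Cdh5 and Car4, neighbouring groups did not differ at the threshold. Only neighbours in an order taken from the same data were compared, so groups farther apart could still differ. Esam was lower at 5 ppm than at 10, 20 and 40 ppm (adjusted p of 1.69e-05, 9.97e-05 and 1.65e-05 by limma). So were Tie1 (0.000119, 0.00458 and 5.62e-05) and Cldn5 (0.00327, 0.0215 and 0.00127). Cdh5 and Egfl7 were lower at 5 ppm than at 10 and 40 ppm, and Car4 was lower at 5 ppm than at 40 ppm. Tek went the other way and was higher at 5 ppm than at 20 ppm (adjusted p = 0.0141 by limma). Pecam1, Kdr and Flt1 at 5 ppm did not differ from 10, 20 or 40 ppm at the threshold.

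Within groups, most members that moved the same way also varied together from mouse to mouse. Each member's deviation from its group mean was taken over the 35 arrays. Among Tek, Pecam1, Flt1 and Kdr, Pearson's r ran from 0.3 to 0.748 over 6 pairs (median 0.544). For each pair, the 2 arrays farthest from the median of its first-listed gene were also left out, so these arrays may differ between pairs. With them left out, r ran from 0.146 to 0.618 (median 0.401). Among Tie1, Egfl7, Cldn5 and Esam it ran from 0.426 to 0.67 over 6 pairs (median 0.541), and from 0.405 to 0.766 with 2 arrays left out per pair (median 0.474). Between these sets of genes it ran from -0.197 to 0.202 over 16 pairs (median -0.0408), and from -0.201 to 0.458 with 2 arrays left out per pair (median 0.0142). The ranges within and between the sets then overlapped. Cdh5, in neither set, had an r of 0.283 to 0.743 with the higher set (median 0.496) and 0.128 to 0.28 with the lower (median 0.227). With 2 arrays left out per pair, these medians were 0.274 and 0.355. Car4 had an r of 0.0979 to 0.428 with the higher set and 0.176 to 0.472 with the lower. Varying together was thus not particular to members that moved the same way. All values of an array share its hybridisation and its scaling. The deviation of the array's interquartile range had an r of 0.803 with Tek (Spearman's rho 0.772), 0.596 with Kdr, 0.566 with Flt1 and 0.445 with Pecam1, but -0.0255 with Tie1, -0.0693 with Esam, 0.108 with Cldn5 and 0.153 with Egfl7. Cdh5 had an r of 0.282. By rank, rho was 0.413 for Kdr and 0.486 for Flt1, but 0.238 for Pecam1, near the 0.236 of Egfl7 and the 0.274 of Cdh5, so the place of Pecam1 among these genes depends on the measure. The part of the array's spread in these differences was not tested beyond the covariate above.

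**Figure D3:**
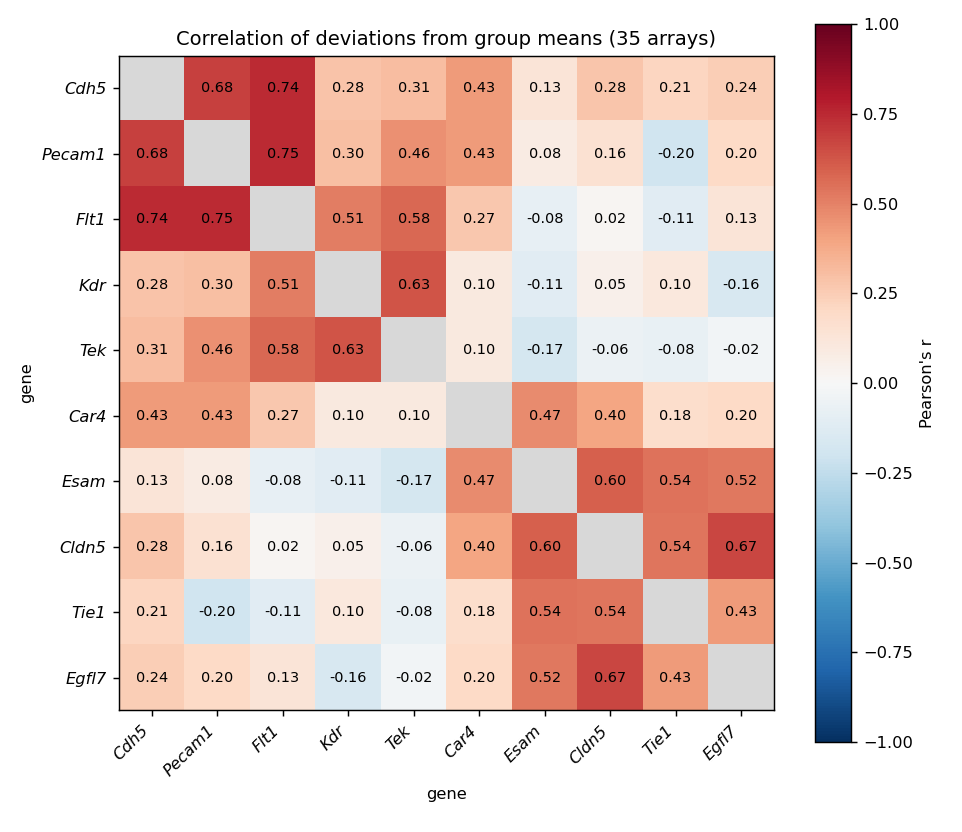
Pearson's r between members of the deviations from the group mean over 35 arrays, as a coloured grid. Tek, Pecam1, Flt1 and Kdr form one block of positive values and Tie1, Egfl7, Cldn5 and Esam another, with values near 0 between them. Cdh5, in neither block, has an r of 0.283 to 0.743 with the first and 0.128 to 0.28 with the second.

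The genes whose levels were most like each member over the 35 arrays, after the group means were taken out, differed between members. Cdh5 was most like Tspan18 (r = 0.803), Tacc1 (0.788), Yap1 (0.78), Cmtm6 (0.778) and Gnb1 (0.777). Tek was most like Rap2c (0.918), Aff4 (0.909) and Twsg1 (0.906), and Pecam1 was most like App (0.918), Tanc1 (0.912) and Arhgap31 (0.905). By rank the Pecam1 values were lower, with a rho of 0.683, 0.661 and 0.77, as was Cdh5 with Tacc1 (0.575). Those of Tek were 0.929, 0.881 and 0.904. The part of the array's interquartile range, which had an r of 0.803 with Tek, in these likenesses was not tested. Kdr was nearest to Ppp6c (0.859) and Flt1 to Sptan1 (0.886). Cldn5 was nearest to Foxf1 (0.741), a transcription factor of lung mesenchyme and endothelium, and Egfl7 to Smagp (0.806) and Ramp2 (0.737), a subunit of the adrenomedullin receptor. Esam was nearest to Lmcd1 (0.753), Tie1 to Impdh1 (0.733) and Car4 to Mmrn2 (0.675), an endothelial matrix glycoprotein.

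The members also differed in the length of their genes, a property looked at after the values were seen. The span from the first to the last base of the gene, introns included, was 1.42 kb for Cldn5, 8.3 kb for Car4, 10.2 kb for Esam, 11.6 kb for Egfl7 and 18.7 kb for Tie1 in RefSeq (GRCm38.p6). It was 42.9 kb for Cdh5, 46.2 kb for Kdr, 61.1 kb for Pecam1, 136 kb for Tek and 165 kb for Flt1. All members that were lower at 120 ppm thus had shorter spans than all that were higher. The same order was seen over all genes: Spearman's rho of span with the 120 ppm difference was 0.307 across 16937 genes, which are not independent replicates. With genes sorted by span into 5 equal bins, the median difference in the shortest bin was -0.30, with 10.9% of genes higher and 53.9% lower, and in the longest bin it was 0.23, with 46.3% higher and 22.3% lower. At 1 ppm against air rho was -0.109, and between 10 and 5 ppm it was -0.195. What links span and change was not tested.

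**Figure D4:**
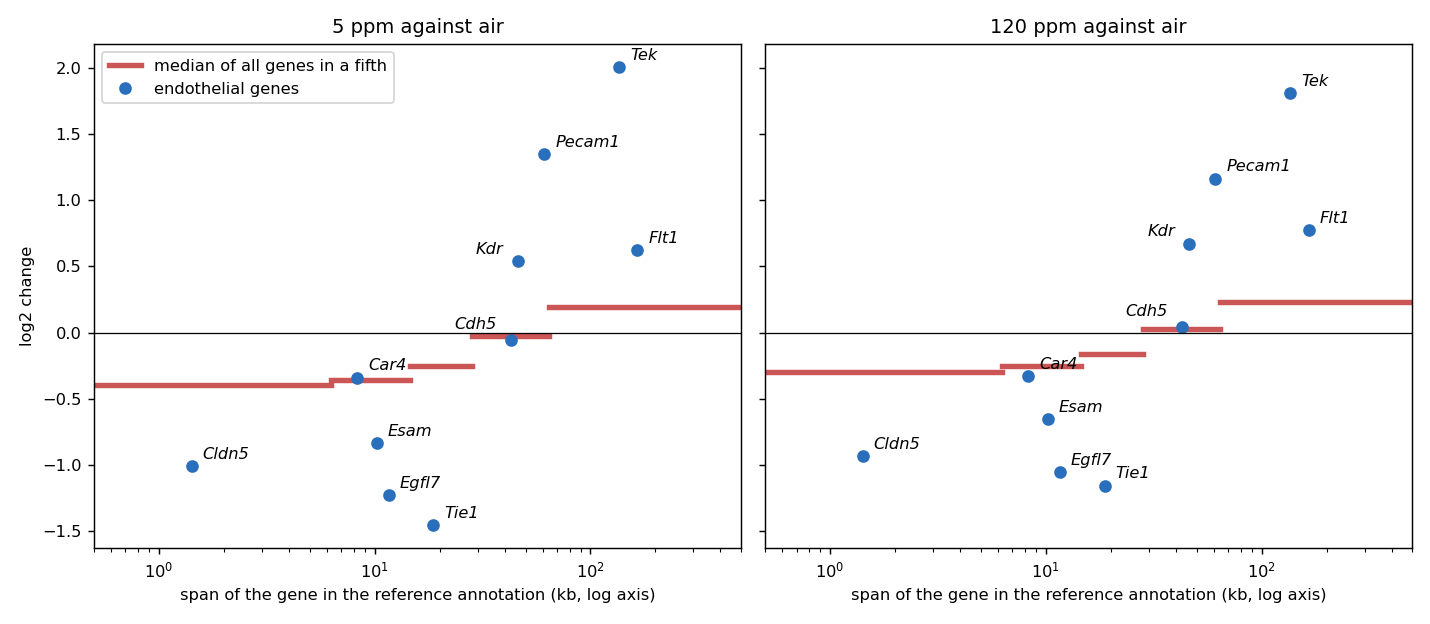
Gene span in kb (log axis) against the log2 difference from air for the 10 members, at 5 ppm (left) and 120 ppm (right). Red bars show the median of all genes in each of 5 equal bins of span. In each panel the 5 members with spans of 18.7 kb or less lie below 0 and the 4 with spans of 46.2 kb or more lie above 0.

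Other genes of the same pathways were split as well, as were all genes, of which 29.8% were higher and 39.1% lower at 120 ppm than in air. Among 10 measured ligands of the VEGF and angiopoietin families, 4 were higher and 4 lower at 120 ppm than in air. Angpt1, the agonist of TIE2, was higher (0.87, adjusted p = 0.0184 by limma), and so was Angpt2, which can oppose it (0.66, adjusted p = 0.0012). Vegfb and Pgf, ligands of VEGFR1, were lower (-1.59 and -0.98). At 1 ppm Angpt2 was lower than in air (-0.66, adjusted p = 0.0366), 1 of 3 genes called there among all lists, with Selp (-0.73), the P-selectin of endothelium and platelets, and Reln (-0.62). These are 3 of 154 list genes on the platform, where 2.46% of all genes were called, so their share is near the background.

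Of 20 other endothelial receptors, 6 were higher and 10 lower at 120 ppm, beside 29.8% of all genes higher and 39.1% lower. Ptprb, the phosphatase VE-PTP that acts on TIE2 and VE-cadherin, was higher by 1.44, and Ednrb, an endothelin receptor, by 1.24. Plxnd1, a semaphorin receptor, was lower (-1.59), as was Notch4 (-1.29). Of 21 junction partners and other adhesion genes, 14 were higher and 4 lower, with a median of 0.58, beside the same shares of all genes. Rap1a, a small GTPase that tightens junctions, was higher by 1.75, and Afdn, the junction adaptor afadin, by 1.56. Rasip1, an effector of RAP1 in endothelium, was lower (-1.65), and so was Jup, the junction protein plakoglobin (-1.57). Adjusted p was 9.36e-07 or less for these 8 genes by limma.

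Of 19 endothelial transcription factors, 8 were higher and 8 lower. Erg (1.80) and Ets1 (1.17), ETS factors of endothelium, rose, whereas Sox18 (-1.39) and Lyl1 (-1.42) fell. Among 9 aerocyte markers 3 were higher and 3 lower at 120 ppm, and among 8 general capillary markers 5 were higher, with Sema3c at 1.49 and Hpgd at 1.25, and 3 lower, with Aplnr at -1.17 and Plvap at -1.15. Of 8 large vessel markers 1 was higher (Bmx, 1.37) and 5 were lower, with Gja4 at -2.04 and Ephb4 at -1.73. Of 5 lymphatic markers 3 were higher, Lyve1 by 2.10, and 1 was lower, Flt4 (-0.63). Prox1, the defining lymphatic factor, averaged 3.14 ± 0.0426 at 120 ppm and 3.40 ± 0.313 in air. It was dim, at percentile 11.27 of the mean levels of all genes, and Flt4 was low too (3.845 at 120 ppm and 4.474 in air). These counts stand beside the 68.9% of all genes called in that comparison (29.8% higher and 39.1% lower).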

How the data were processed

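The authors deposited log2 values for 45037 probe sets on 35 arrays. RMA and Partek are named, without versions, per the submitters' processing notes. No genome build is given for the processing of the arrays, whereas the promoters and spans above are from RefSeq (GRCm38.p6). Of the probe sets, 28898 had exactly 1 gene symbol in the platform annotation, 551 had several and 15588 had none. The brightest probe set by mean over all arrays stood for each of 17097 genes. These were fitted with limma 3.58.1 (R 4.3.3), with a mean per group over all 35 arrays, as deposited, and called at an adjusted p under 0.05 (two-sided, Benjamini-Hochberg over all genes). The fit was tried on simulated data with independent genes, few of them changed. That setting is unlike these data, in which most genes were called at 5 to 120 ppm. The members and the 16 gene lists (154 of 172 genes on the platform) were chosen with earlier results of these data known. All members were named. Of other genes, at most 2 rises and 2 falls per list at 120 ppm, and at 1 ppm, were named by size among those called, with the 5 genes most like Cdh5 and the 3 most like each other member. The labels number the 5 mice of a group but do not say that the numbers pair them. Alternatives covered normalization, probe sets, weights, covariates, the trend scale and each array left out.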

Additional observations from a re-analysis of the deposited data

Results flagged for a closer look

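In 3 of 70 groups of 5 mice (10 members in 7 groups), 1 mouse lay far from the other 4 by Dixon's criterion, which chance meets in about 1 group in 20. Flt1 in 5 ppm mouse 2 was 7.979 on the log2 scale, where the other 4 mice lay between 8.37311 and 8.42951. Tek in 5 ppm mouse 3 was 10.874, where the others lay between 10.7614 and 10.7935. Egfl7 in air mouse 2 was 11.422, where the others lay between 11.1694 and 11.2072. The 5 ppm difference of Flt1 from air stayed called without any 1 array, as did those of Tek and Egfl7.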

How the results depend on the processing

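Quantile normalization, a trended and robust prior and leaving out dim genes changed no call of a member. The numbers of the mice were not taken to pair them, since the labels do not say so and 46 of 105 same-numbered pairs of arrays, not all, had a correlation of deviations over 0.1 (mean 0.049, -0.378 to 0.441, against -0.0115 for other pairs). The best match of 16 of 35 arrays had its own number, a hint of pairing from the data and not from the design. With the replicate number as a block, the members called were still 9 at 5 ppm, 9 at 10 ppm, 8 at 20 ppm, 9 at 40 ppm and 9 at 120 ppm against air, and 0 at 1 ppm. In the same order, 77.3%, 66.6%, 63.7%, 64.9%, 69.4% and 2.49% of all genes were called in that fit. With the array's interquartile range as a covariate, 5 members were called at 5 ppm against air (1 higher, 4 lower), beside 34.1% of all genes. There were 6 at 10 ppm and 6 at 40 ppm (2 higher, 4 lower in each), beside 28.8% and 28.3% of all genes. There were 5 at 20 ppm and 5 at 120 ppm, beside 28.2% and 29.5%. For 5 ppm against 1 ppm there were 4, beside 17.1%, and for the slope over 7 groups 0, beside 6.94%. The difference then turned round for Kdr at 5 ppm (-0.27), 20 ppm (-0.15) and 120 ppm (-0.023) and for Flt1 at 5 ppm (-0.19) and 20 ppm (-0.030) against air, and for Kdr (-0.40) and Flt1 (-0.32) at 5 against 1 ppm. Over all genes that covariate left 5836 calls at 5 ppm, against 13169 without it, and 5042 at 120 ppm, against 11784. Centring on array medians moved the median of all genes at 5 ppm to -0.33, where it was -0.23 as deposited, and turned no member round. A linear ppm scale left 0 called slopes over 7 groups, and array weights gave 1 call (Cdh5) at 120 against 40 ppm and 8 at 120 ppm against air, where Car4 was lost. The shares of all genes called under these settings were not taken. With 1 array left out at a time, the members called ran from 8 to 9 at 20 ppm and at 120 ppm against air, from 4 to 5 at 10 against 5 ppm, and from 8 to 10 for the slope over 7 groups, and the counts of the other comparisons did not move. The cause of these changes was not tested.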

Other observations

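Genes of nitric oxide and vascular tone were also split at 120 ppm against air, with 5 of 11 higher and 4 lower, beside 68.9% of all genes called (29.8% higher and 39.1% lower). Cav1, the caveolin that coats endothelial caveolae, was higher by 1.39 and Cav2 by 1.42, whereas Ace, the angiotensin-converting enzyme, was lower (-1.28), as was Ddah2 (-1.40), each with an adjusted p of 8.47e-08 or less by limma.

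Markers of other cells of the lung were called in the same comparison, in which 29.8% of all genes were higher and 39.1% lower, and the shares of several lists lay near these. Of 9 platelet markers, 8 were lower, with Gp1bb at -3.10 and Gp9 at -2.18, and of 3 red blood cell markers 2 were lower (Slc4a1 at -2.41 and Alas2 at -1.46). Of 9 leukocyte markers 2 were higher (Ms4a1 at 2.13 and Ptprc) and 3 lower, with Nkg7 at -1.21. Of 7 alveolar epithelial markers 5 were higher, Epcam by 1.58, and Ager alone was lower (-0.15). Of 6 airway markers 1 was higher (Cdhr3, 1.91) and 2 were lower (Foxj1 at -1.09 and Tppp3 at -0.88). Of 9 mesenchymal and pericyte markers 3 were higher, Dcn by 2.05, and 4 lower, Col1a1 at -1.71. Of 4 mesothelial markers 2 were higher (Lrrn4 and Wt1) and 1 was lower (Msln at -0.57).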
